A study of Mus musculus with 15 samples.

Results

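Livers of mice that expressed the human Z variant of alpha1-antitrypsin were compared with livers of their wild type littermates, across 12393 genes. The members were chosen by their labels, as the 3 arrays of the Z line with the transgene on (Z-on) and the 3 littermate arrays, which are 6 of the 15 arrays of the study. All mice were labelled adult males aged 3 months, and each group had 3 biological replicates, with liver RNA of a mouse on an Affymetrix array of its own. Z-on mice drank water without doxycycline and carried an inducible human alpha1-antitrypsin transgene in its mutant Z form, described as expressed only in the liver. Littermates also had no doxycycline and were described as wild type and without the human protein. For context, values are given for M-on mice (the wild type M form expressed, no doxycycline) and for Z-off and M-off mice, which had doxycycline at 40 µg/mL in drinking water from conception and so by design did not express the transgene.

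The labels name neither the promoter that drives the switch nor say whether the littermates carried the driver, so effects of the human protein, of the driver and of the insertion site in the Z line cannot be told apart in Z-on against littermates. No probe set for the human transgene was used here, so its expression was not checked on the arrays. The p-values measure the spread between these mice only.

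Alpha1-antitrypsin is a protease inhibitor that hepatocytes make in large amounts and secrete into blood. The Z variant folds poorly, is retained in the endoplasmic reticulum (ER) as polymers, and is cleared by ER-associated degradation through the proteasome and by autophagy. Background for the pathways below is that the unfolded protein response (UPR) raises ER chaperones when unfolded proteins accumulate, that sterol-sensing factors set the genes of cholesterol synthesis, and that Kupffer cells are the resident macrophages of the liver.

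The array controls differed between the groups before any gene was compared. Bacterial poly-A control RNAs, which are added before labelling, had medians of 1.95 to 5.25 on Z-on arrays and 45.6 to 53.05 on littermate arrays. At its 5′ end, 18S ribosomal RNA read 1879.9 to 2666 on Z-on arrays and 75 to 285.8 on littermate arrays, and hybridization controls had medians of 178 to 240.2 on Z-on arrays and 302.1 to 360.6 on littermate arrays. The mean ratio of 3′ to 5′ signal was 1.57 in Z-on and 2.41 in littermates for actin, and 0.940 in Z-on and 1.09 in littermates for Gapdh. M-on arrays resembled Z-on arrays in these controls, with poly-A medians of 3.75 to 6.05 and 18S signals of 1830 to 2680.7. How far sample handling contributed to any difference from littermates was not tested, and the handling and the genotype cannot be told apart. The level on M-on arrays is therefore given beside many of the results, though not beside all. Of the M-on arrays, numbers 1 and 2 gave female-type signals: Xist, the RNA of the inactive X chromosome, read 1149.2 and 226.0 there, against at most 74.3 on Z-on and 69.4 on littermate arrays. The Y-linked gene Eif2s3y read 105.3 to 147.7 on Z-on and 194.6 to 247.3 on littermate arrays, and 0.4, 1.3 and 42.1 on the M-on arrays, so M-on 3 was also below both groups.

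At an adjusted p under 0.05 in limma, 1524 of 12393 genes (12.3%) were called between Z-on and littermates. Of these, 936 were higher in Z-on (7.55% of all genes) and 588 lower (4.74%), and beyond 1 log2 unit the counts were 213 (1.72%) and 111 (0.896%). All changes are Z-on minus littermates on the log2 scale of signal plus 16, which understates the change of dim genes. The 3 Z-on arrays all lay above the 3 littermate arrays for 2445 genes (19.7%) and all below for 1546 (12.5%). The median change over all genes was 0.06. The next brightest probe set of a gene often did not follow. It was called the same way for 70 of 480 genes called higher (14.6%) and 60 of 237 called lower (25.3%), against 8.45% over all genes. Where its mean signal was at least 64, these shares were 23.3%, 34.6% and 14.2%. For genes called higher its median change was 0.14, against 0.78 in the probe set used. For genes called lower the medians were -0.18 and -0.72.

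The direction of the calls depended on how bright a gene was. Of 106 genes with a mean signal of 4096 or more, 0 were called higher and 68 lower, with a median change of -0.55, whereas of 3778 genes between 16 and 64 the counts were 322 higher and 70 lower, with a median of 0.17. Quantile normalization, which gives every array the same distribution of values, removed this slope, with medians of 0.01 and 0.04 in these ranges and 2 higher and 0 lower calls among the brightest genes. After it 577 genes were higher (4.66%) and 560 lower (4.52%), so that 50.7% of the calls were higher, against 61.4% with the deposited scaling. Both treatments called 547 of the same genes higher and 413 lower. Abundant secreted proteins such as albumin (Alb) lie in the range where the scaling sets the direction, and counts after quantile normalization therefore stand beside the list counts below. The shares of all genes against which those counts are to be read are 7.55% higher and 4.74% lower, or 4.66% and 4.52% after quantile normalization.

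**Figure D1:**
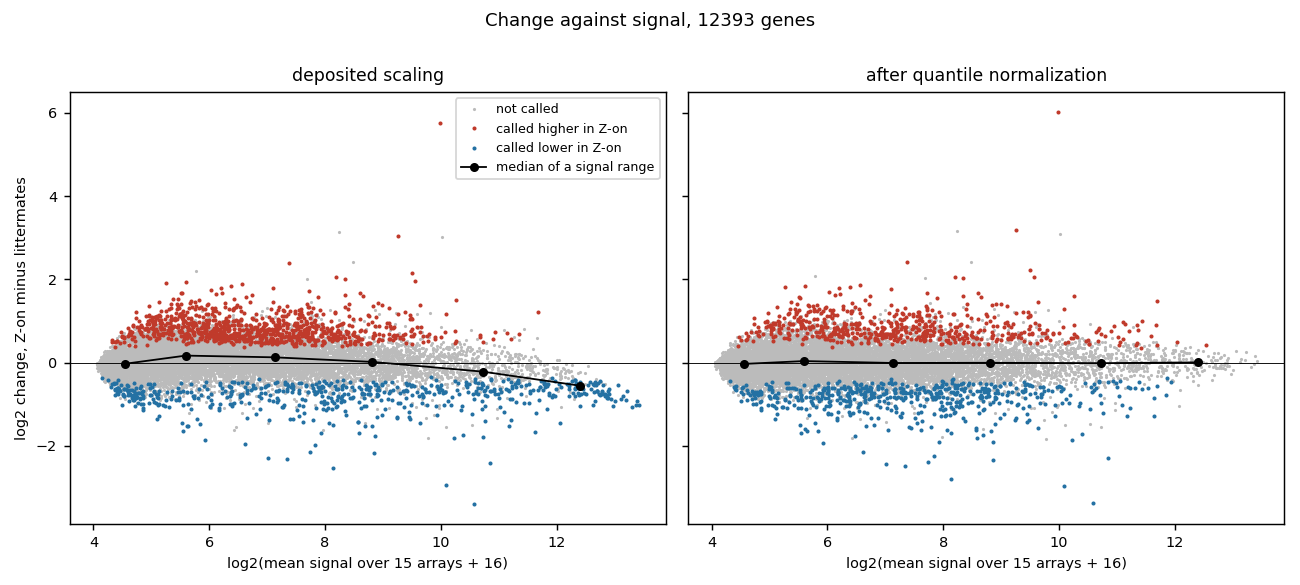
Log2 change of each gene in Z-on minus littermates against its log2 mean signal over 15 arrays plus 16, with the deposited scaling on the left and after quantile normalization on the right; each coloured or grey point is a gene and black points are medians of 6 signal ranges. On the left the median is -0.03 in the dimmest range, 0.17 in the next and -0.55 in the brightest, and on the right they stay between -0.03 and 0.04.

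Among genes of moderate or higher signal, Cyp2c37 and Adi1 had the largest rises, followed by Gpaa1, Evi5 and Abcc2. Cyp2c37, a hepatic P450, read 2961.5, 1764.3 and 2119.9 on the Z-on arrays, against 15.4, 40.8 and 24.3 on the littermate arrays (log2 change 5.76, SE 1.10, adjusted p = 0.00471). The groups did not overlap, but Cyp2c37 was also variable elsewhere, at 266, 2569.5 and 52.8 on the M-on arrays. With the transgene off its mean was also above that of littermates (26.8), at 475 in Z-off and 1233 in M-off. Adi1, an enzyme of methionine salvage, read 2055.4, 1752.6 and 1077.6 in Z-on, against 132.9, 212.1 and 190.9 in littermates (3.05, SE 0.47, adjusted p = 0.00137). Abcc2, the canalicular exporter of conjugated bilirubin, read 606.3, 478.5 and 393.0 in Z-on, against 108.4, 112.0 and 95.4 in littermates (2.05, SE 0.25, adjusted p = 4.77e-04). Every Z-on array lay far above every littermate array for both genes. Cyp26a1, which degrades retinoic acid, read 1575.3, 1750.2 and 821.5 in Z-on, against 321.0, 279.2 and 385.5 in littermates (1.96, SE 0.39, adjusted p = 0.00555).

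Rgs16, which speeds the shut-off of G protein signalling, read 319.9, 246.6 and 265.7 in Z-on, against 35.1, 57.5 and 114.0 in littermates (1.89, SE 0.43, adjusted p = 0.0127). Its Z-on arrays were the highest of all 15, and M-on arrays read 18.7, 62.8 and 9.7. Sema3e, a secreted guidance protein, read 82.5, 66.2 and 87.9 in Z-on, against 17.2, 11.1 and 1.6 in littermates (1.91, SE 0.34, adjusted p = 0.00302). M-on arrays were at or under 9.9 for Sema3e, so Z-on stood alone there too. Srf, the serum response factor that drives actin genes, had a change of 1.85 (SE 0.26, adjusted p = 8.62e-04), and Csnk2a1, a catalytic subunit of casein kinase 2, one of 1.73 (SE 0.15, adjusted p = 9.08e-05). Gpaa1, part of the complex that attaches lipid anchors to proteins, rose by 2.39 and Serpinb1a, an inhibitor of neutrophil proteases, by 1.93. Evi5, a Rab GTPase-activating protein, rose by 2.16, with a mean of 948 in Z-on, against 198.5 in littermates, but it was also high with the transgene off, at 1154 in Z-off and 853 in M-off. Mean Srf was also above littermates (18.3) there, at 57.2 in Z-off and 58.1 in M-off. The same held for Csnk2a1 (164 and 151, against 83.0) and Abcc2 (228 and 333, against 105). It also held for Cyp26a1, at 824 and 619, against 329 in littermates, and for Cdk5rap1, at 126 and 112.5, against 47.2. The rest of the 15 were Fbxo36 (2.02), Cysrt1 (1.80), Cdk5rap1 (1.79) and Crim1 (1.74). In M-on minus littermates, Fbxo36 (2.29), Adi1 (1.85), Gpaa1 (1.84), Srf (1.69) and Cysrt1 (1.604) were also called higher. So were Csnk2a1 (1.495), Serpinb1a (1.299), Abcc2 (1.01) and Cdk5rap1 (0.915). The remaining rises were not called there.

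The largest falls named a cytoskeletal gene, plasma proteins, a sterol enzyme and an ER chaperone cofactor. Pfn1, the actin-binding protein profilin, read 299.3, 122.6 and 273.2 in Z-on, against 1903.4, 1739.7 and 1665.1 in littermates (-2.94, SE 0.24, adjusted p = 4.97e-05). It was as low on M-on arrays, at 222.6, 316.6 and 246.9. Ggact, which acts on products of protein crosslinking, read 47.4, 49.1 and 44.9 in Z-on, against 265.7, 482.9 and 336.0 in littermates (-2.54, SE 0.30, adjusted p = 4.21e-04). Apcs, the serum amyloid P component, read 690.5, 257.7 and 518.9 in Z-on, against 3949.5, 1825.0 and 2116.4 in littermates (-2.41, SE 0.32, adjusted p = 5.74e-04). Apcs was not low in M-on, at 3119.2, 2063.4 and 2500.9. It was also low with the transgene off in the Z line, at a mean of 682 in Z-off (-1.85 against littermates, adjusted p = 0.00160). Its difference between Z-on and Z-off was not called (-0.56, adjusted p = 0.179). Saa2, an acute phase apolipoprotein, fell by 2.15, Hc, complement component 5, by 1.79 and Fabp5, a fatty acid-binding protein, by 1.76. The other falls were Snrnp25 (-2.31), Mvk (-2.28), Sdf2l1 (-2.17), Malat1 (-1.99), Arhgap9 (-1.96), Mndal (-1.85), Fdps (-1.81), Sc5d (-1.75) and H2-Aa (-1.68), of which Mvk, Sdf2l1, Fdps, Sc5d and H2-Aa are described with their pathways. In M-on minus littermates, Pfn1 (-2.695), Ggact (-2.31), Saa2 (-1.59), Hc (-3.20), Sdf2l1 (-2.14) and Malat1 (-3.02) were also called lower. Mvk (0.88) and Fdps (1.07) were called higher there, and the remaining falls were not called. Mean Hc was also low in M-off, at 977. Mean Mndal was low in Z-off, at 1.8 (-2.36 against littermates, adjusted p = 0.00419).

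**Figure D2:**
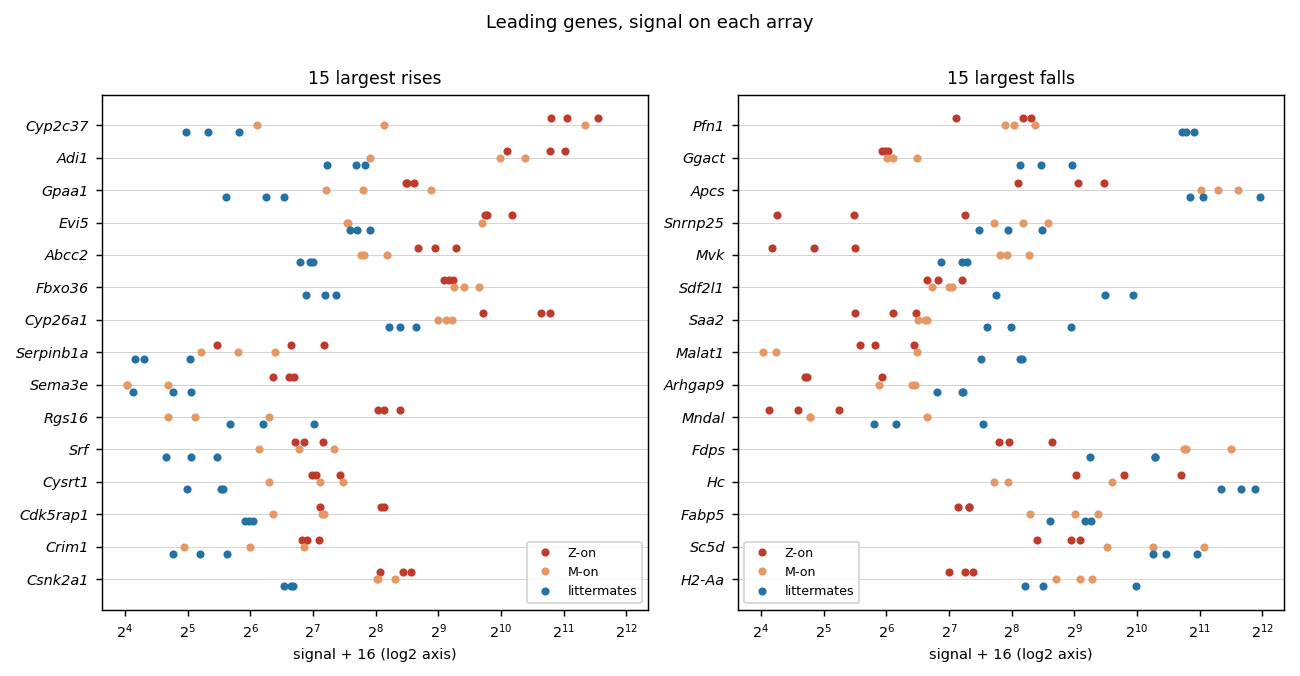
Signal plus 16 on a log2 axis for the 15 largest rises and 15 largest falls, with a point per array for Z-on, M-on and littermates. Z-on and littermate points do not overlap for any of the 30 genes, which the choice of genes required, whereas M-on points lie near Z-on for Pfn1 and near littermates for Apcs.

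Of these 30 genes, 29 were also called after quantile normalization (Hc had an adjusted p of 0.0506), and 24 kept their call when each of the 6 arrays was left out in turn. The exceptions were Rgs16 (lost without littermates 1), H2-Aa (without Z-on 1), Hc (without Z-on 1 or littermates 1), Mndal (without Z-on 2, Z-on 3 or littermates 1), Snrnp25 (without Z-on 1 or 2 or littermates 1 or 3) and Malat1 (without Z-on 1 or 3 or littermates 2 or 3). Where a gene had several probe sets they often differed. Of the 11 rises with more than 1 probe set, only Adi1 and Cysrt1 had another probe set called the same way, whereas among the 8 such falls 5 did (Mvk, Malat1, Mndal, Fabp5 and H2-Aa). Another probe set of Evi5 gave -0.12, one of Srf also -0.12, and 2 others of Rgs16 gave 1.29 (adjusted p = 0.0540) and 0.48 (adjusted p = 0.315). Arhgap9 had another probe set called in the opposite direction (1.20), so its change has no settled direction.

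Many genes of cholesterol synthesis fell in Z-on livers. Of 20 measured genes of cholesterol synthesis and uptake, 10 were lower and 1 higher (11 and 1 after quantile normalization), beside 4.74% lower and 7.55% higher among all genes, and their median change was -0.93, against 0.06 over all genes. For each of the 10 that fell, the 3 Z-on arrays lay below all 12 other arrays of the study. The promoters of Mvk and Cyp51 are shown because these genes stand at an early and a late step of the pathway and both fell; CCAAT, or ATTGG on the other strand, is in capitals. The windows hold 250 bases before and 50 after the start of the gene, 5′ to 3′ on its strand, from RefSeq on GRCm38.p6, at chr5:114444019-114444318 (plus strand) and chr5:4104648-4104947 (minus strand).
Mvk: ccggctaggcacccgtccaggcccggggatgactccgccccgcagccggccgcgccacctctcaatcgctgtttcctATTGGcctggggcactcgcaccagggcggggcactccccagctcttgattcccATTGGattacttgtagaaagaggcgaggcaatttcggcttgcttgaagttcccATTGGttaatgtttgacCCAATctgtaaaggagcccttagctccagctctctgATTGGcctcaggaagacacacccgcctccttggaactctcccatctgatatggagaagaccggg
Cyp51: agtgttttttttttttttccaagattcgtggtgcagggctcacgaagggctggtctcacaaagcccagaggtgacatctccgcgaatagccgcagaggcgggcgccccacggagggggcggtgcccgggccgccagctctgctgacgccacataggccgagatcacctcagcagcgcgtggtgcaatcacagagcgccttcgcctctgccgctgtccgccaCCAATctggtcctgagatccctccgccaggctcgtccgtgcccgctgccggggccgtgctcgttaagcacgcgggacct

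The letters CCAAT occurred 5 times in the Mvk window and 1 time in that of Cyp51, counting both strands. Of 32851 windows of all genes, 37.4% held at least 1 match and 0.271% at least 5. Of the 10 genes that fell, 7 had a window in the table, and all 7 held CCAAT; Fdps, Fdft1 and Sqle had no entry. The sterol element TCACNCCAC was found in 0 of the 7 and in 1.24% of all windows, and the E-box CACGTG in 2 (Dhcr7 and Sc5d), against 7.15%. A match describes the letters and is not evidence of a bound site.

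The mevalonate part of the pathway came first in order of its steps. Mvk, mevalonate kinase, read 12.8, 29.5 and 2.0 in Z-on, against 132.2, 140.3 and 101.5 in littermates (-2.28, SE 0.26, adjusted p = 2.95e-04). Its M-on arrays, at 208.4, 226.9 and 294.6, were above both groups. Pmvk, phosphomevalonate kinase, read 61.4, 52.0 and 63.3 in Z-on, against 73.4, 138.7 and 115.7 in littermates (-0.71, SE 0.18, adjusted p = 0.0198). Idi1, the isopentenyl diphosphate isomerase, read 190.9, 356.8 and 132.0 in Z-on, against 361.3, 795.9 and 744.1 in littermates (-1.45, SE 0.41, adjusted p = 0.0323), and Z-on 2 and littermates 1 nearly touched. Fdps, farnesyl diphosphate synthase, read 231.2, 382.0 and 205.8 in Z-on, against 591.8, 1236.9 and 1228.1 in littermates (-1.81, SE 0.31, adjusted p = 0.00247). Hmgcs1, the synthase upstream of mevalonate, read 864.8, 1456.6 and 390.7 in Z-on, against 898.5, 2129.8 and 2674.7 in littermates, which overlapped (-1.11, adjusted p = 0.151), while another of its probe sets was called (-1.33, adjusted p = 0.0398).

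The squalene and sterol steps showed the same direction. Fdft1, squalene synthase, read 242.0, 230.2 and 202.6 in Z-on, against 452.6, 623.8 and 694.5 in littermates (-1.31, SE 0.19, adjusted p = 9.40e-04). Sqle, squalene epoxidase, read 61.1, 112.2 and 72.4 in Z-on, against 147.8, 266.5 and 349.4 in littermates (-1.42, SE 0.30, adjusted p = 0.00758). Cyp51, the lanosterol demethylase, read 68.2, 120.4 and 83.9 in Z-on, against 197.5, 361.5 and 327.2 in littermates (-1.53, SE 0.21, adjusted p = 7.82e-04). In all 3 genes the highest Z-on array was below the lowest littermate array. Tm7sf2, a sterol reductase, fell by 1.26 (SE 0.16, adjusted p = 5.38e-04), and Dhcr7, the last reductase of the pathway, fell by 1.30 (SE 0.29, adjusted p = 0.0104). Sc5d, the sterol C5-desaturase, read 477.6, 529.0 and 323.3 in Z-on, against 1392.0, 1977.6 and 1209.4 in littermates (-1.75, SE 0.34, adjusted p = 0.00496). Another probe set of Sc5d gave -0.03. Hsd17b7, a 3-ketosteroid reductase, was the exception, with 233.9, 223.1 and 274.9 in Z-on, against 114.5, 127.1 and 145.5 in littermates (0.84, SE 0.21, adjusted p = 0.0189). Not called were Mvd (-0.75), Lss (-0.47), Msmo1, Nsdhl, Ebp, Stard4, Scap and Srebf2, the master regulator of the pathway (0.42, adjusted p = 0.227). Another probe set of Lss was called lower (-0.96, adjusted p = 0.0424).

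**Figure D3:**
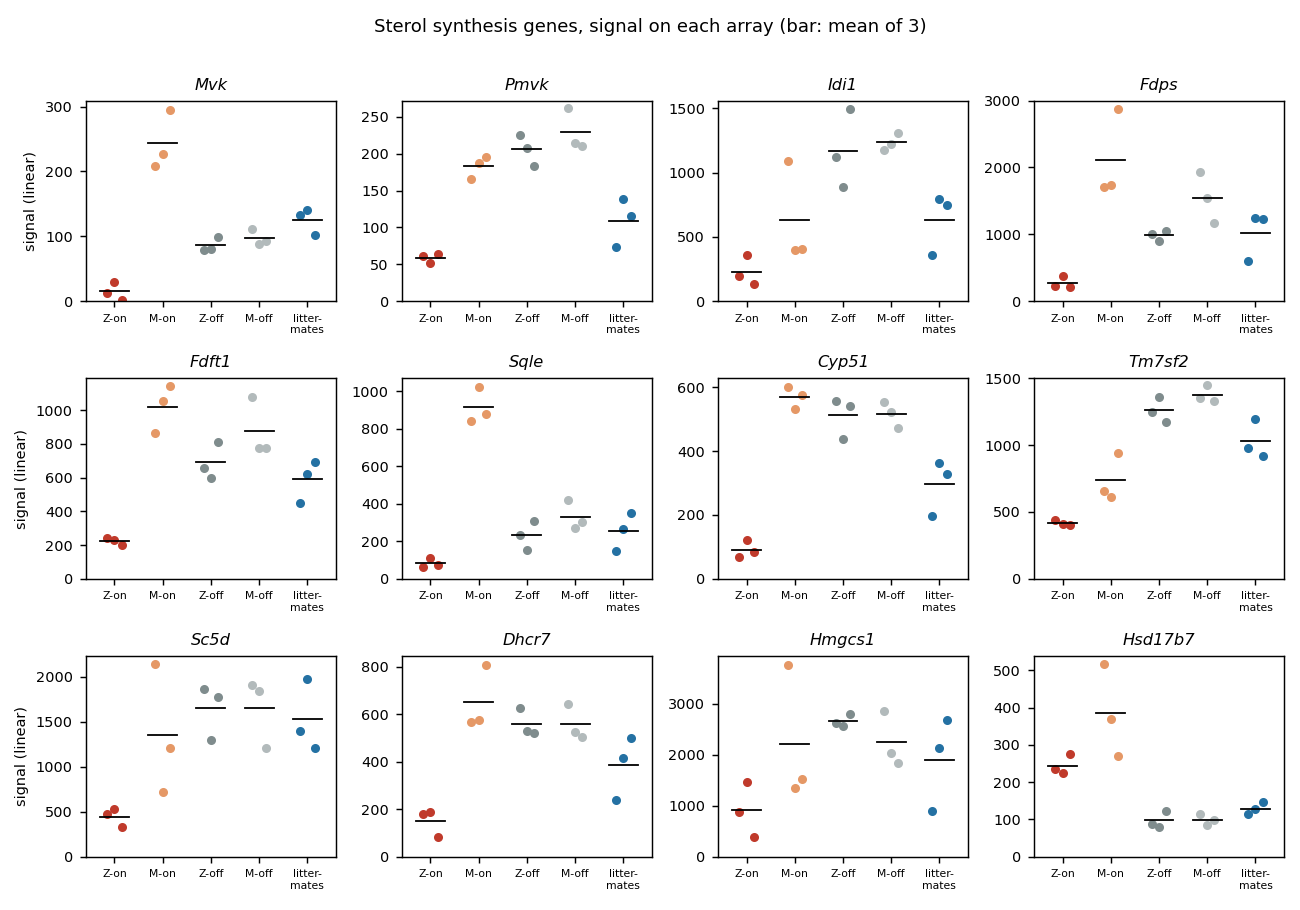
Signal on a linear scale for 12 genes of cholesterol synthesis on the Z-on and M-on, the Z-off and M-off and the littermate arrays, with a point per array and a bar at the mean of 3. The Z-on points are the lowest for the 10 genes that fell, Hmgcs1 overlaps with littermates, and Hsd17b7 is higher in Z-on than in littermates.

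The pathway also separated Z-on from M-on, a comparison that shares the Z-on arrays with the one above. M-on itself lay above littermates, with a list median of 0.74 in M-on minus littermates. The difference from M-on is therefore larger than the fall from littermates. In Z-on minus M-on, 14 of 20 genes were lower and 0 higher, beside 1.48% lower and 3.68% higher (5.16% together) among all genes, with a median of -1.44. The count was also 14 without the M-on arrays 1 and 2, and 15 after quantile normalization. Sqle was -3.28 (adjusted p = 7.61e-05), Mvk -3.16 (4.97e-05) and Cyp51 -2.48 (5.64e-05). Leaving out 1 array of the Z-on and littermate groups gave 8 to 13 lower genes, and Pmvk and Idi1 kept their calls in 3 and 2 of the 6 fits.

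By the probe set used for each gene, those of ER protein folding were either lower in Z-on or not called. Of 32 chaperones and folding enzymes, 9 were lower and 0 higher, beside 4.74% and 7.55% of all genes, with a median change of -0.25. After quantile normalization 8 were lower and 1 higher, the cargo receptor Lman1, beside 4.52% and 4.66% of all genes. Hspa5, the main ER chaperone BiP, read 2371.1, 2609.2 and 4219.8 in Z-on, against 2835.2, 5459.9 and 7010.0 in littermates, which overlapped (-0.68, SE 0.29, adjusted p = 0.137), although another of its probe sets was called (-1.01, adjusted p = 0.0179). Pdia3, a disulfide isomerase for glycoproteins, read 767.7, 932.6 and 962.0 in Z-on, against 1954.3, 2546.0 and 2611.4 in littermates (-1.40, SE 0.16, adjusted p = 2.68e-04). Pdia4, another disulfide isomerase, read 272.8, 238.5 and 295.3 in Z-on, against 517.8, 719.0 and 773.5 in littermates (-1.25, SE 0.18, adjusted p = 9.74e-04). Both groups were well apart in the isomerases. Sdf2l1, an ER protein that works with chaperones, read 84.6, 96.9 and 132.5 in Z-on, against 200.1, 703.6 and 965.4 in littermates (-2.17, SE 0.43, adjusted p = 0.00539), where littermates 1 was close to Z-on.

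Among the other folding genes, Canx, the lectin chaperone calnexin, fell by 0.76 (SE 0.14, adjusted p = 0.00372), Ppib, an ER cyclophilin, by 1.06 (SE 0.19, adjusted p = 0.00335) and Fkbp2, a prolyl isomerase, by 0.51. Manf fell by 1.04 but not after quantile normalization (adjusted p = 0.0916), and Pdia5 (-0.59) and Erp44 (-0.49) kept their calls in 3 and 2 of the 6 fits that left out an array. Between 6 and 11 genes of the list were lower in those fits. M-on levels were like those of Z-on: Pdia3 read 779.5, 689.0 and 978.5, Sdf2l1 read 90.4, 111.3 and 115.6, and 2 genes of the list were higher and 0 lower in Z-on minus M-on. Probe sets disagreed for Hyou1, at -0.23 for the one used and -2.19 (adjusted p = 0.00145) for another, and for Canx, at -1.64 and 0.08 for the others. Probe sets not used were called higher for Lman1 (1.05, adjusted p = 8.10e-04), Fkbp11 (1.40, adjusted p = 0.0144) and Tmx1 (0.66, adjusted p = 0.0242).

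The promoters of Canx and Sdf2l1, which fell, are shown for the letters of the ER stress element, CCAAT and CCACG with 9 bases between them, in capitals with the CCAAT matches on either strand. They lie at chr11:50325624-50325923 and chr16:17132334-17132633 on GRCm38.p6 (RefSeq), both on the minus strand.
Canx: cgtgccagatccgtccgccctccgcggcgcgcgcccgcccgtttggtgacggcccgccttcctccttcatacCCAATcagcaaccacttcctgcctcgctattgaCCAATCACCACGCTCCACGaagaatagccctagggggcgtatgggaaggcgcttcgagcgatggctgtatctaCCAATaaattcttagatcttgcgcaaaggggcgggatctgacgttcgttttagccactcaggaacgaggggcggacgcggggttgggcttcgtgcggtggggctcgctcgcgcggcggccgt
Sdf2l1: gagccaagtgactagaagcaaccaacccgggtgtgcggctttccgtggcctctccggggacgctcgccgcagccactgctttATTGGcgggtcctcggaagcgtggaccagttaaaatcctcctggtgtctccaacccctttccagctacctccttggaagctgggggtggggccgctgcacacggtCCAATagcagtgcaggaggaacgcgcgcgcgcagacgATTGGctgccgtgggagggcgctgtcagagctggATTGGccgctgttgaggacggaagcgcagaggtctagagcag

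The Canx window held CCAAT 3 times, 1 of them within a match to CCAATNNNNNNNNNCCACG, which occurs in 0.119% of all windows on either strand. Sdf2l1 held CCAAT 4 times, as do at least that many in 1.06% of windows, and no full element. Of the 9 genes that fell, 8 had a window, of which 7 held CCAAT and 1 (Canx) the element; Manf had no entry.

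UPR sensors and integrated stress genes gave 2 higher and 2 lower of 28. Ppp1r15a, the phosphatase subunit that reverses the translation block, read 109.5, 92.7 and 148.8 in Z-on, against 68.6, 63.0 and 50.4 in littermates (0.78, SE 0.20, adjusted p = 0.0193, and 0.0659 after quantile normalization). Fgf21, a hepatic stress hormone, was dim, at 14.1, 8.6 and 9.8 in Z-on, against 25.3, 38.1 and 53.3 in littermates (-1.01, adjusted p = 0.0226). Mbtps1, the protease that cleaves Atf6 and the sterol factors, rose by 0.55, and Atf6b, a relative of Atf6, fell by 0.55. By the probe set used, readouts common for the UPR were not called: Dnajb9, a target of Xbp1, at 0.45 (adjusted p = 0.345), Xbp1 at -0.32 (adjusted p = 0.219) and Ddit3, the factor CHOP, at -0.39 (adjusted p = 0.159). Of the other 3 probe sets of Xbp1, 1 was called lower (-0.63, adjusted p = 0.0189) and the rest gave -0.47 and 0.41.

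Few genes of ER protein disposal were called. In ER-associated degradation 3 of 30 were higher, among them Herpud2 (0.64), Ganab, a glucosidase that trims glycans (0.60), and Sel1l, the adaptor of the Hrd1 ligase (0.45), and 1 lower, the oligosaccharyltransferase subunit Stt3a (-0.72). In ER translocation and vesicle transport 1 of 42 was higher, the coat subunit Copa (0.63), and 3 were lower, the retrieval receptor Kdelr2 (-1.02), Ssr4 (-0.88) and Sec63 (-0.54). Of 30 autophagy genes, Atg7, which activates the conjugation of LC3, rose by 0.48, and Map1lc3a (-0.93), Gabarap (-0.62) and Ambra1 (-0.58) were lower. The lysosome list had 4 of 33 higher, the proteases Ctsl (0.73) and Tpp1 (0.50), the cholesterol carrier Npc2 (0.69) and Mcoln1 (0.60), and 2 lower, Atp6v1h (-1.10) and Ctss (-0.85). No autophagy gene was called lower without Z-on 2, Z-on 3 or littermates 3, and 1 lysosomal gene was called higher without Z-on 3 or without littermates 2.

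Some proteasome subunits were lower. Of 37, 7 were lower and 1 higher (5 and 3 after quantile normalization; 4 lower without Z-on 1, littermates 1 or littermates 2). The fallen subunits included 2 catalytic subunits of the immunoproteasome, Psmb10 (-1.14, SE 0.20, adjusted p = 0.00320) and Psmb9 (-1.21, adjusted p = 0.00983). Psmb10 read 119.1, 163.7 and 139.6 in Z-on, against 439.0, 330.5 and 241.8 in littermates, with no overlap. Psmb2 (-1.10), Psmc1 (-0.76), Psmd8, Psmb3 and Psmb4 also fell, and Psmd1, a scaffold of the regulatory particle, rose by 0.60. Of 33 cytosolic heat shock genes, Cct3 (0.62) rose and Hspb8 (-0.68) and Tcp1 (-0.54) fell.

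Stress signalling lists held few calls. Of 30 NF-κB subunits, inhibitors and targets 2 were higher and 0 lower, the inhibitor Nfkbia (0.52, adjusted p = 0.0142) and the chemokine Ccl2 (1.04, adjusted p = 0.0211), and the higher count was 0 without Z-on 3 and without littermates 2. In the RGS family, 4 of 17 were higher and 0 lower (2 higher after quantile normalization), with Rgs14 at 0.97, Rgs9 at 0.91 and Rgs8 at 0.82 beside Rgs16, and 1 was higher without Z-on 3 or without littermates 1. Of 28 apoptosis regulators, the TNF receptor Tnfrsf1a (1.15) and the pro-apoptotic Bcl2l11 (0.73) were higher and Bid (-0.58) lower. Of 35 immediate early genes, Ccn2, a matricellular growth factor, rose by 1.67, Fosl1 by 1.07 and Jund by 0.60, and Gadd45a (-0.91) and Egr2 (-0.68) fell. Of 33 clock genes, 3 were higher and 1 lower. Hlf, a clock output factor, read 267.8, 259.7 and 308.8 in Z-on, against 123.8, 137.4 and 147.1 in littermates (0.95, SE 0.14, adjusted p = 0.00125). The groups did not overlap, but the other Hlf probe set gave 0.04 (adjusted p = 0.898). Nr1d1, the repressor REV-ERB alpha, read 215.3, 222.1 and 136.1 in Z-on, against 56.2, 50.9 and 108.8 in littermates (1.27, adjusted p = 0.0320), and kept its call only without Z-on 3 or littermates 3 among the fits that left out an array. The probe set used for the kinase Csnk1d was lower (-0.85), but its other 4 gave 0.32 to 0.50 and 1 of them was called higher (adjusted p = 0.0384), so its direction is not settled. The sources used here give no hour of tissue collection.

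The antioxidant list was mixed, with 3 of 32 higher and 7 lower (3 and 5 after quantile normalization). Gclc, the rate-limiting enzyme of glutathione synthesis, read 1435.8, 1325.8 and 1282.5 in Z-on, against 715.5, 466.2 and 613.9 in littermates (1.17, SE 0.19, adjusted p = 0.00209). Gsta2, a glutathione transferase, read 1747.2, 1099.6 and 1120.6 in Z-on, against 726.6, 460.2 and 258.8 in littermates (1.51, SE 0.29, adjusted p = 0.00482). The groups did not overlap for either, although another probe set of Gclc gave 0.01 (adjusted p = 0.977), and Nfe2l2, the regulator NRF2 itself, also rose (0.58, adjusted p = 0.0362). Sod1, the cytosolic superoxide dismutase, read 1996.6, 2121.9 and 1773.4 in Z-on, against 4652.4, 4529.3 and 4463.2 in littermates (-1.21, SE 0.15, adjusted p = 5.19e-04). It was as low in M-on, at 1735.1, 1530.8 and 2340.5, whereas a dimmer probe set of Sod1 gave 0.60 (adjusted p = 0.107). The other falls were Osgin1 (-1.18), Fth1 (-0.92), Prdx4 (-0.83), Pgd (-0.69), Prdx3 (-0.58) and Gpx1 (-0.51).

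Class II antigen presentation genes were lower in Z-on livers. Of 10 measured, 5 were lower and 0 higher, also after quantile normalization, with a median of -0.62, and the summed signal of the list was 729.3 to 1048.6 on Z-on arrays and 1555.5 to 2950 on littermate arrays. In bulk liver, fewer cells of a type and less RNA per cell cannot be told apart. H2-Aa, the alpha chain of a class II molecule, read 111.4, 137.5 and 151.7 in Z-on, against 991.7, 346.1 and 280.0 in littermates (-1.68, SE 0.40, adjusted p = 0.0159). Littermates 1 was well above the other two, yet the groups did not overlap. H2-Ab1, its beta chain, read 65.9, 76.5 and 122.9 in Z-on, against 290.0, 230.0 and 183.3 in littermates (-1.28, SE 0.29, adjusted p = 0.0117). Cd74, the invariant chain, read 186.0, 218.8 and 237.6 in Z-on, against 751.9, 718.9 and 483.8 in littermates (-1.52, SE 0.32, adjusted p = 0.00748). H2-DMa, which loads peptides, fell by 0.99 (SE 0.20, adjusted p = 0.00713) and Ctss, which trims the invariant chain, by 0.85 (SE 0.25, adjusted p = 0.0413). With the transgene off in the Z line the list was as low by its median, at -0.61 in Z-off minus littermates. Its median in M-on minus littermates was 0.10. Mean H2-Aa was 303 in Z-off and 351 in M-off, against 539 in littermates. Low values also occurred on Z-off 2, at 195.8 for Cd74 and 16.5 for H2-DMa. H2-Eb1 (-0.18), H2-Ea, H2-DMb2, H2-Oa and Ciita, the class II transactivator (0.56, adjusted p = 0.173), were not called.

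The H2-Aa promoter is shown because it leads the class II falls. It lies at chr17:34287774-34288073 (minus strand, GRCm38.p6, RefSeq), and the capitals mark the cyclic AMP element letters TGACGTCA, found in 1.79% of windows, and a CCAAT match on the opposite strand.
H2-Aa: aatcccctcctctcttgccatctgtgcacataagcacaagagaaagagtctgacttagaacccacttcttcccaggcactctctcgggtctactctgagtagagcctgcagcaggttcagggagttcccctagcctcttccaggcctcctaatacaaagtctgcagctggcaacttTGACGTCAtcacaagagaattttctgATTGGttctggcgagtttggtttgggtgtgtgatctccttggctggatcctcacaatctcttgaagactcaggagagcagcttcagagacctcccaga
Of the 5 genes that fell, 3 had a window, of which 2 (H2-Aa and H2-DMa) held CCAAT and 1 (H2-Aa) TGACGTCA.

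Some macrophage genes fell with the class II genes, but the markers that define Kupffer cells were not called. Of 29 Kupffer cell and macrophage markers, 6 were lower and 0 higher (9 and 0 after quantile normalization), the median change was -0.22, and the summed signal was 3724.2 to 4222.6 on Z-on arrays and 4509.3 to 6569.2 on littermate arrays. Csf1r, the receptor that macrophages need for survival, read 276.6, 348.0 and 419.4 in Z-on, against 1119.5, 847.9 and 688.2 in littermates (-1.30, SE 0.20, adjusted p = 0.00137). Its M-on arrays, at 778.7, 866.1 and 702.6, were like the littermates, while 2 other probe sets of Csf1r were not called (-0.45 and -0.09). C1qc, a chain of complement C1q, read 57.1, 101.0 and 138.7 in Z-on, against 326.6, 254.6 and 229.7 in littermates (-1.37, SE 0.26, adjusted p = 0.00452). The other C1q chains, C1qa (-0.98) and C1qb (-0.90), and the Fc receptor genes Fcer1g (-0.74) and Fcgr1 (-0.70) also fell. Clec4f, a Kupffer cell lectin, read 225.0, 223.8 and 274.0 in Z-on, against 404.0, 340.4 and 211.0 in littermates, which overlapped (-0.34, adjusted p = 0.310). Vsig4 (-0.55), Marco (-0.22), Cd5l (-0.12), Cd68 (-0.08) and Adgre1, the antigen F4/80 (-0.02, adjusted p = 0.961), were not called, and no defining marker measured was at 0. By its median the list was also lower with the transgene off in the Z line, at -0.33 in Z-off minus littermates. In M-on minus littermates the median was -0.04. The number of cells was not tested.

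**Figure D4:**
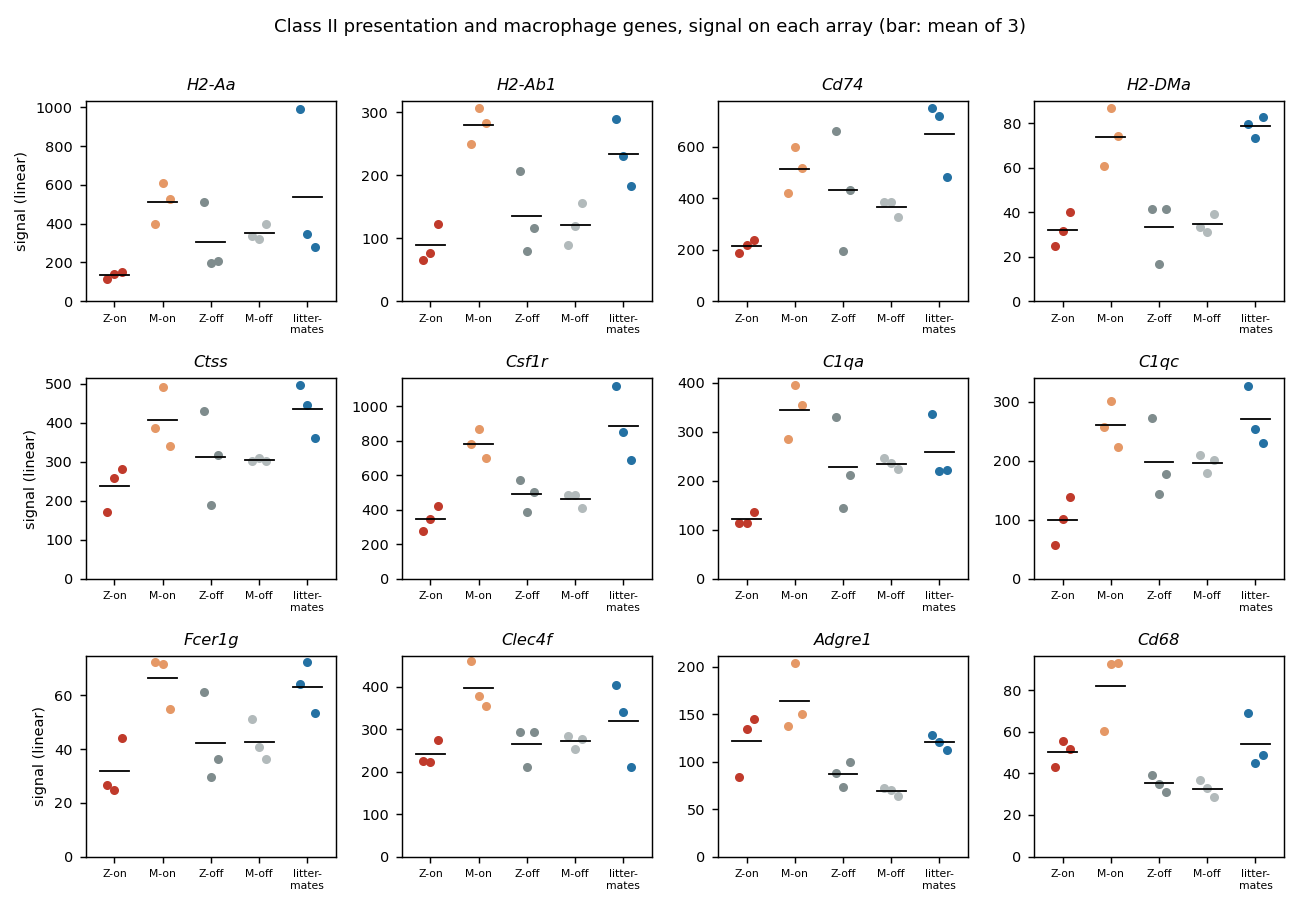
Signal on a linear scale for 12 class II and macrophage genes on the Z-on and M-on, the Z-off and M-off and the littermate arrays, with a point per array and a bar at the mean of 3. Z-on points lie below littermate points for H2-Aa, Cd74, Csf1r and the C1q genes, and overlap with them for Clec4f and Adgre1.

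These calls rested in part on single arrays. The class II count was 3 without Z-on 1, and the macrophage count was 3 without Z-on 1, Z-on 2 or littermates 1. In Z-on minus M-on, 4 class II and 5 macrophage genes were lower, and 1 and 3 without the M-on arrays 1 and 2. The interferon list had 1 of 35 higher, Oasl1 (0.87), and 2 lower, the GTPase Ifi47 (-0.79) and Ifitm3 (-0.57). Markers of lymphocytes (28), of neutrophils and erythroid cells (19) and of exocrine pancreas and adipose tissue (22) had 0 called in either direction.

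Of 40 measured genes of the matrix and of stellate cells, 8 were higher and 0 lower, beside 7.55% and 4.74% of all genes. The higher count was 3 after quantile normalization, beside 4.66% of all genes, and 2 without Z-on 3. The summed signal was 8095.4 to 8588.1 in Z-on and 6334.2 to 6771.6 in littermates. Timp2, an inhibitor of matrix metalloproteinases, read 178.4, 159.9 and 178.5 in Z-on, against 59.1, 44.9 and 33.1 in littermates (1.63, SE 0.19, adjusted p = 4.21e-04). M-on arrays had the same level, at 149.8, 220.5 and 193.7. Fbln5 (0.86), Dcn, the proteoglycan decorin (0.82), Mmp14 (0.80), Cygb (0.77), Col4a2 (0.61), Mmp2 (0.56) and Col5a1 (0.56) made up the rest. The defining stellate cell genes were not called, with Des at 0.60, Acta2 at 0.52, Reln at 0.42, Col1a1 at 0.13 and Lrat at -0.25. Of 16 cholangiocyte markers 2 were higher, Bicc1 (0.95) and Tspan8 (0.64), and 0 after quantile normalization, while Krt7, Krt19, Epcam and Sox9 were not called. Of 28 endothelial markers, Bmp2 (0.91) and Ptprb (0.78) were higher and Stab2, Clec4g, Lyve1 and Kdr were not called.

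Many genes of secreted proteins were lower with the deposited scaling, and fewer were called after quantile normalization. Of 28 acute phase genes 11 were lower and 1 higher (4 and 1 after quantile normalization), and of 37 complement and coagulation genes 16 were lower and 0 higher (8 and 0). The complement list includes C1qa and C1qc, which were also counted above among the macrophage genes. The serpins had 5 of 22 lower and 1 higher (0 and 1), other secreted proteins 10 of 25 lower (2), and apolipoproteins 8 of 23 lower and 1 higher (1 and 1). Alb read 7621.7, 7215.2 and 7779.0 in Z-on, against 12758.3, 13392.2 and 15836.6 in littermates, a change of -0.89 that was 0.06 after quantile normalization. Serpina1b and Serpina1c, mouse relatives of the human transgene, had changes of -0.88 and -1.02, and of 0.02 and 0.03 after quantile normalization. Probe sets shared by several Serpina1 genes gave -0.91 (Serpina1a and Serpina1d) and -1.02 (Serpina1b, Serpina1c and Serpina1e). Of the 16 hepatocyte markers 9 were lower and 0 higher, and 1 was lower after quantile normalization, with median changes of -0.58 and, after it, 0.04.

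Saa2, Apcs, Orm1, Itih3 and Il1rn were among the genes of secreted proteins called under either treatment. Saa2 read 29.4, 53.2 and 72.8 in Z-on, against 475.3, 239.0 and 179.6 in littermates (-2.15, SE 0.43, adjusted p = 0.00561; -2.38 after quantile normalization). Apcs, described above, was -2.29 after quantile normalization. Orm1, an acute phase glycoprotein (-1.13), and Itih3 (-0.96) were also lower, and Il1rn, the interleukin 1 receptor antagonist, was higher at 144.7, 130.4 and 130.6 in Z-on, against 31.3, 48.1 and 53.9 in littermates (1.34, SE 0.19, adjusted p = 8.62e-04). Il1rn was as high in M-on, at 168.9, 150.4 and 117.6. Hc read 503.0, 872.1 and 1642.7 in Z-on, against 3742.5, 2586.3 and 3202.3 in littermates, and was not called after quantile normalization (adjusted p = 0.0506). Apom, a carrier of sphingosine phosphate, fell by 1.19 and Scarb1, the receptor for high-density lipoprotein, rose by 0.69, and both were also called after quantile normalization. Apob, the structural protein of lipoproteins, fell by 1.44 with the deposited scaling and was not called after quantile normalization (adjusted p = 0.107).

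In fatty acid oxidation 3 of 34 were higher and 4 lower, and 5 and 1 after quantile normalization. Ppara, the receptor that drives these genes, read 1168.6, 899.3 and 1058.6 in Z-on, against 517.7, 374.3 and 503.9 in littermates (1.14, SE 0.18, adjusted p = 0.00142). Pex11a, a peroxisome proliferation factor, read 841.9, 720.2 and 1189.7 in Z-on, against 348.1, 309.0 and 411.1 in littermates (1.30, SE 0.19, adjusted p = 0.00103). Both were clear of the littermates and near the M-on means, 862 for Ppara and 769 for Pex11a. Acaa2, a mitochondrial thiolase, read 1490.7, 2338.2 and 1445.8 in Z-on, against 4866.5, 5640.7 and 6062.8 in littermates (-1.67, SE 0.18, adjusted p = 1.86e-04), whereas its other 2 probe sets gave -0.49 (adjusted p = 0.0750) and -0.38 and were not called. Cpt2 rose by 0.63, and Fabp1 (-1.06), Slc27a2 (-0.74) and Ech1 (-0.68) were lower. Of 37 genes of fatty acid synthesis and triglyceride storage, Dgat1 (0.79) was higher and Elovl1 (-0.58) lower. Of 27 genes of glucose handling only Fbp1 was called (-0.49, and 0.07 after quantile normalization), and of 30 urea cycle and amino acid genes 10 were lower, but 1 after quantile normalization.

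Of 39 P450 genes 5 were higher and 8 lower, and 7 and 0 after quantile normalization. Beside Cyp2c37 and Cyp26a1 the rises were Cyp2c50 (1.23), Cyp21a1 (0.84) and the reductase Cyb5r3 (0.56). Conjugating enzymes had 4 of 38 higher, Gstt3 (1.60), Gsta2, Gsto1 (1.05) and Gstm6 (0.87), and 5 lower, led by Tpmt, which methylates thiopurines (-1.33). Bile acid synthesis and transport had 3 of 25 higher, Abcc2, the phospholipid exporter Abcb4 (0.57) and Fgfr4 (0.51), and 4 lower, Scp2 (-0.78), the uptake carrier Slc10a1 (-0.65), Slc27a5 (-0.63) and the receptor Nr1h4 (-0.52). After quantile normalization 2 were higher and 1 lower, and Scp2 was at 0.00. In iron and heme handling 2 of 27 were higher, Cpox, an enzyme of heme synthesis (1.09), and Slc30a1 (0.65), and 3 lower, Fth1, the hormone gene Hamp (-0.75) and Tfr2 (-0.70).

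Among housekeeping lists, 21 of 42 cytosolic ribosomal protein genes were lower and 0 higher, and 6 and 1 after quantile normalization. Fau, a ribosomal protein fused to a ubiquitin-like part, fell most, at 1154.5, 979.1 and 1177.7 in Z-on, against 3284.9, 3113.3 and 3235.6 in littermates (-1.53, SE 0.12, adjusted p = 3.60e-05; -1.29 after quantile normalization). Of 61 mitochondrial ribosomal genes 10 were lower and 3 higher (12 and 2), and of 72 nuclear-encoded respiratory chain genes 21 were lower and 1 higher (10 and 3), with Ndufa4 at -1.37 and Atp5e at -1.13. Of 38 hepatocyte transcription factors, Ppara (1.14), Nr2f2 (0.88), Prox1 (0.86) and Gata6 (0.53) were higher and Nr1h4 and Nr1h3 (-0.50) lower. Of 47 cell cycle genes only Ccnd3 (0.67) was called. Of 18 male-type liver genes 1 was lower, Gstp1 (-1.04), and of 22 female-type genes 1 was higher, Rdh16f2 (1.66). These shares, 5.56% and 4.55%, stand beside 4.74% lower and 7.55% higher among all genes. The median change was -0.40 for male-type and 0.20 for female-type genes (-0.13 and 0.11 after quantile normalization). In M-on minus littermates the medians were -1.08 and 1.77. The fit took its spread from all 15 arrays, M-on included, so few calls in these lists do not show that they were unchanged.

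**Figure D5:**
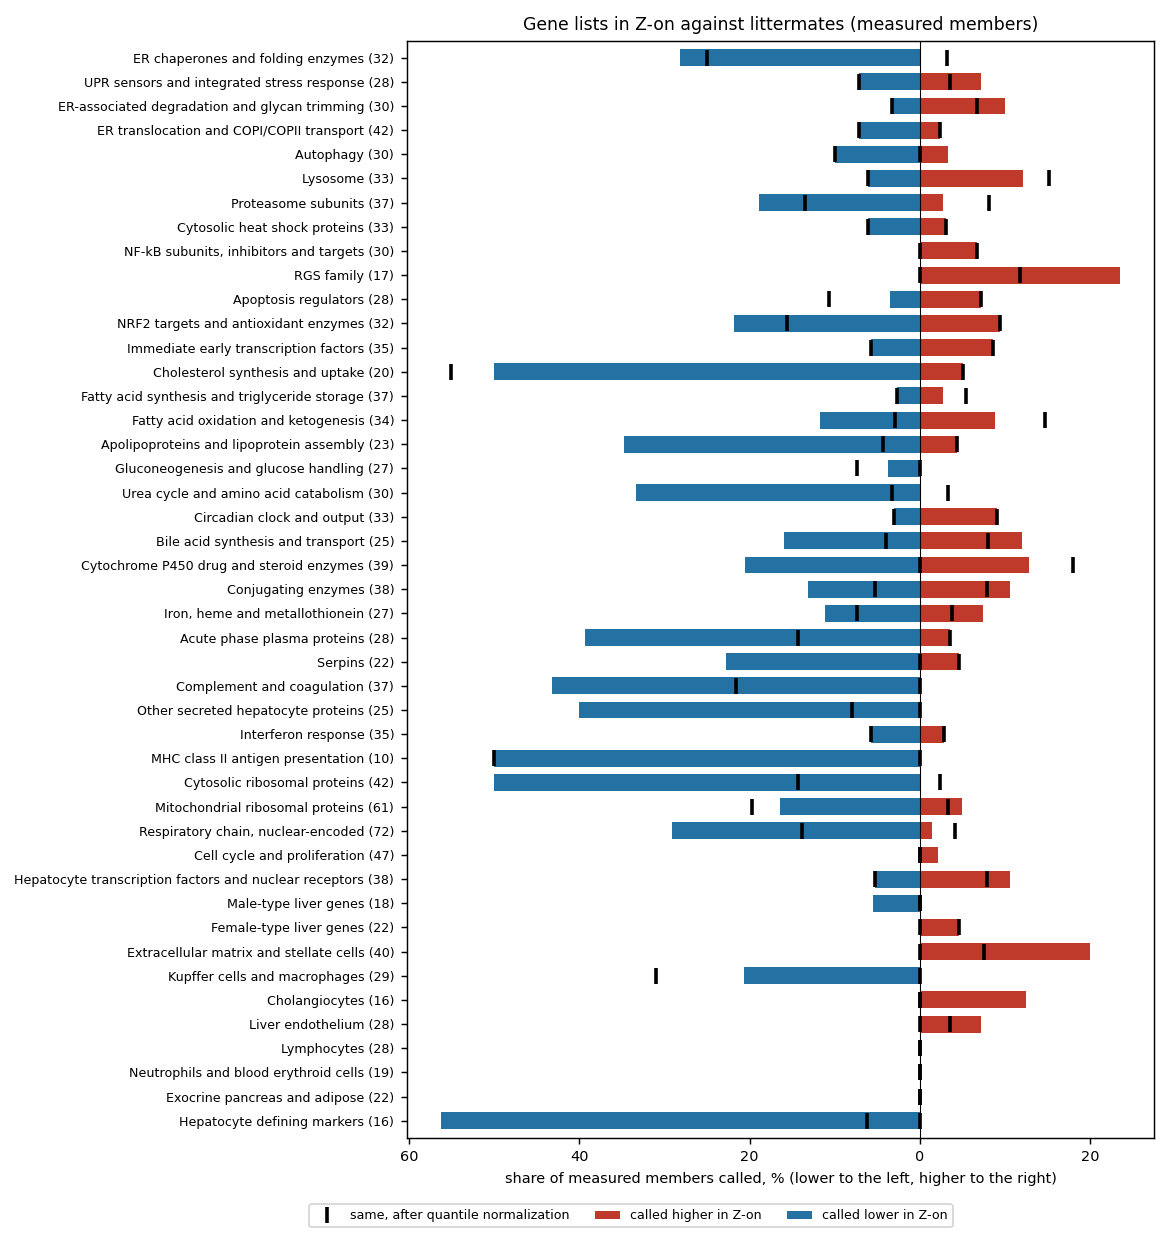
Share of the measured members of each of 45 gene lists that were called lower (left) or higher (right) in Z-on, in percent, as bars, with black ticks at the share after quantile normalization. Ticks and bars lie close for cholesterol synthesis and class II genes, whereas for secreted and hepatocyte lists the ticks lie far inside the bars on the left.

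Last, 82 called genes (0.662%) had Z-on arrays above all 12 other arrays of the study, and 97 (0.783%) below. The 8 largest such rises were Abcc2, Sema3e, Rgs16, Ccn2, Bach2, Wwc2, Luzp1 and Sbno1. Ccn2 read 169.8, 95.0 and 139.6 in Z-on, against 51.1, 28.2 and 17.5 in littermates (1.67, SE 0.28, adjusted p = 0.00225). Bach2, a transcriptional repressor best known in lymphocytes, read 95.0, 105.0 and 178.4 in Z-on, against 22.3, 34.1 and 29.2 in littermates (1.64, SE 0.30, adjusted p = 0.00367). M-on arrays lay between the groups, at 43.0, 91.0 and 44.2 for Ccn2 and 61.4, 48.6 and 31.7 for Bach2. Wwc2, a relative of the Hippo pathway protein KIBRA, rose by 1.57, Luzp1 by 1.33 and Sbno1 by 1.32. Their other probe sets did not follow, as a dim one of Wwc2 was called lower (-0.70, adjusted p = 0.0227), that of Luzp1 gave 0.02, and those of Sbno1 gave -0.45 to -0.04. Mean Luzp1 was also above littermates (28.9) with the transgene off, at 61.6 in Z-off and 67.4 in M-off. Wwc2 (1.13) and Sbno1 (0.62) were also called higher in M-on minus littermates. The 8 largest such falls were Mvk, Saa2, Fdps, Fabp5, Sc5d, H2-Aa, Fau and Cyp51, of which 4 are enzymes of cholesterol synthesis. Fabp5 read 142.8, 143.5 and 125.7 in Z-on, against 373.1, 598.5 and 562.5 in littermates (-1.76, SE 0.29, adjusted p = 0.00222), and 501.2, 297.3 and 649.5 in M-on.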

How the data were processed

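Per the labels' protocols, liver RNA came from a TRIZOL extraction followed by an RNeasy clean-up and was labelled with biotin. The authors deposited an intensity per probe set on a linear scale, and the submitters' processing notes name RMA, without a version, and no other tool. The trimmed mean was nearly equal on every array while medians differed, so the deposited intensity values were treated as scaled linear signals, and 16 was added before log2. The scaling method and the genome build of the array are not given in the sources used here.

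The table of probe genes gave 1 gene for 20380 of 22690 probe sets, several for 691 and none for 1555, beside 64 array controls. RefSeq names matched for 20351. Each of 12393 genes, of which 4956 had several probe sets, was read from the brightest by its mean over the arrays. In limma 3.58.1 (R 4.3.3), a model with a mean for each group used all 15 arrays, with 10 residual and 3.88 prior degrees of freedom. Genes with a two-sided p under 0.05 after Benjamini-Hochberg adjustment over all genes were called. Changes have the standard error (SE) of the fit. The number of arrays limits the precision.

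In 45 gene lists, 1395 of 1629 entries were measured, 12 of them under an older symbol. Members and lists were chosen with earlier results of these data known, and no test of a list was made. Genes were named by rule. These were called genes with the 15 largest rises and the 15 largest falls, with no overlap between groups and a higher mean of at least 64, with clone symbols passed over. The rule also took the 8 largest of each direction beyond all 12 other arrays, up to 4 called members per list (2 by smallest p where none was called), and always Ddit3, Dnajb9, Hspa5, Xbp1, Rgs16 and the Serpina1 genes. Other list members, their probe sets and the controls were read after values were seen.

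Alternatives were a fit restricted to both groups, one of all groups except M-on, constants of 1 and 64, quantile normalization, genes above the 40th percentile of signal (35.7, 7435 genes), and all probe sets. Further ones were a robust fit with an intensity trend, weights per array, a block for the replicate number, and leaving out each array. Leaving out M-on 1 and 2 was planned for named genes and added for lists after the data were seen. Simulated data with 50 genes changed at each size gave recovery of 22% at 0.585, 56% at 1, 86% at 1.5 and 96% at 2 log2 units for Z-on minus littermates over 12393 genes, and 0.0328% of 12193 unchanged genes were called. The simulation drew independent noise for each gene, changed few genes and had no slope of change with signal. Its rates may therefore not hold for the measured arrays. Promoter letters were searched on both strands, and figures drawn, in Python 3.11.15 (matplotlib 3.10.9).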

Additional observations from a re-analysis of the deposited data

Results flagged for a closer look

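Of 176 genes named by rule, 37 also differed between Z-on and M-on, beside 5.16% of all genes; the 2 comparisons share arrays, and M-on arrays 1 and 2 had female-type signals. The choice of 16 of the named genes required Z-on arrays beyond the M-on arrays, and 12 of the 37 are among these, so their difference from M-on is a description only. They are Abcc2, Sema3e, Rgs16, Ccn2, Bach2, Mvk, Fdps, Fabp5, Sc5d, H2-Aa, Fau and Cyp51. Of the other 160 named genes 25 differed. Of the 37, 10 were higher and 27 lower in Z-on, and 25 were still called without those arrays. All values are Z-on minus M-on on the log2 scale. Evi5, in the list that follows, was also high in Z-off (2.42 above littermates, adjusted p = 0.00169). So was Abcc2 (0.93, adjusted p = 0.0156), and Apcs was also low in Z-off (-1.85 against littermates, adjusted p = 0.00160). The 10 that were higher were Rgs16 (2.82), Sema3e (2.31), Evi5 (1.63), Bach2 (1.15), Abcc2 (1.04), Ccn2 (1.03), Hlf (0.83), Herpud2 (0.68), Sec63 (0.64) and Nfkbia (0.53). Sterol genes that were lower were Mvk (-3.16), Fdps (-2.88), Cyp51 (-2.48), Fdft1 (-2.10), Sc5d (-1.47) and Tm7sf2 (-0.77). Class II and macrophage genes that were lower were H2-Aa (-1.81), H2-Ab1 (-1.53), C1qa (-1.39), C1qc (-1.33), Cd74 (-1.20), Csf1r (-1.15) and H2-DMa (-0.90). Among secreted and lipid genes, Apcs was -2.44, Fabp5 -1.64, Apom -0.89, Elovl1 -0.89, Acaa2 -0.71 and F10 -0.54. The others were Snrnp25 (-2.50), Arhgap9 (-1.13), Ifi47 (-0.99), Prdx4 (-0.91), Psmb10 (-0.82), Npc2 (-0.76), Fau (-0.51) and Mrps7 (-0.46). The 12 not called without M-on 1 and 2 were Abcc2, Snrnp25, Arhgap9, H2-Aa, Sec63, Npc2, Psmb10, Nfkbia, Apom, H2-DMa, Cd74 and C1qc. Groups of 3 arrays are too small for a test of a single outlying array.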

How the results depend on the processing

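The main count was 1524 called genes, 936 higher and 588 lower. It was 1003 (609 higher) with only the groups compared and 1003 (573 higher) with a constant of 1. Without the M-on group it was 1925 (1177 higher), and with a constant of 64 it was 1886 (1193 higher). All probe sets gave 2405, with 1520 higher and 885 lower, and quantile normalization 577 higher. Leaving out 1 array gave 959 (without Z-on 3) to 1308 genes, with 567 to 830 higher and 392 to 485 lower, 191 to 228 list members against 270, and 26 to 29 of the 30 leading genes. Of the leading genes, 12 differed between Z-on and M-on, 4 with only the groups compared, 4 with a constant of 1 and 6 to 15 with 1 array left out. After quantile normalization the sign turned for Serpina1b (0.0247), Serpina1c (0.0345), Apoa2 (0.15), Fbp1 (0.0716), Scp2 (0.0027), Alb (0.0629), Ttr (0.25) and Selenop (0.0670); this normalization removes the slope of change with signal by its construction. With replicate number as a block, 1386 genes were called (856 higher, 530 lower). Same-numbered arrays correlated in their deviations at 0.039, 0.066 and 0.045, so the numbers were not treated as pairs, although each array correlated best with its own number. Genes whose signal is near the constant have poorly measured changes. Of 67 list counts above 0, 48 moved by over 1.5 times in at least 1 fit that left out an array, mostly counts of 1 to 4 genes. Counts of 5 or more that did so, beside those in the text, were 10 in complement (without littermates 1), 6 in other secreted proteins (Z-on 2), 5 in the urea cycle (Z-on 2 or littermates 1), 3 in the P450 genes (Z-on 3 or littermates 1), 3 in conjugation (Z-on 3), and 13 each in cytosolic ribosomal (Z-on 2 or 3) and respiratory genes (Z-on 3). Of 2 lower genes 0 were left for UPR sensors (without Z-on 3 or littermates 3), immediate early genes (littermates 2) and hepatocyte transcription factors (any array but littermates 3). Of the transcription factors 1 was higher without Z-on 2, and bile acid counts were as low as 2 lower and 1 higher and the higher mitochondrial ribosomal count 1.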

Other observations

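A few genes set the Z line apart whether the transgene was on or off. The 6 Z-on and Z-off arrays all lay beyond the 9 other arrays, by more than 1 log2 unit in the mean, for 3 genes. Apcs, the serum amyloid P component, read 257.7 to 690.5 in Z-on and 593.9 to 782.8 in Z-off, against at least 1825 on the other arrays (mean difference -2.19). Pik3c2g, a class II phosphoinositide 3-kinase of liver, read 99.8 to 166.2 in the Z line, against 12.3 to 86.8 (1.58), and Dbt, a subunit of the branched-chain ketoacid dehydrogenase, read 418.8 to 555.4, against 62.2 to 417.6 (1.04). At any size of difference, 15 genes were higher and 11 lower on all 6 arrays. These genes were picked after their values were seen, and no test was made.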
